A study of Bos taurus with 6 samples.

Results

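S100 genes encode small calcium-binding proteins of the EF-hand superfamily, and 9 of them, chosen by symbol, were looked up among the 27607 genes measured in bovine chondrocytes with and without induction of CREB5. Rows under the given symbols were found for 8, which are S100A1, S100A2, S100A4, S100A10, S100A11, S100A13, S100A16 and S100B. The remaining gene was not analysed here. RNA-seq libraries were made from articular chondrocytes of the deep zone, which borders the bone, taken from 3 independently collected knees. Cells of both groups carried a lentivirus with doxycycline-inducible bovine CREB5, which encodes a DNA-binding regulator related to ATF2. They had survived 11 days of G418 (500 µg/ml) and then spent 3 days on low attachment plates with 10% FBS, 20 ng/ml TGFb2 and 100 ng/ml TGFa. The Dox- group (3 libraries, numbered 1 to 3) had no doxycycline and the Dox+ group (3 libraries, also 1 to 3) had it at 1 µg/ml. The infected cells were a selected population rather than 1 clone, and none of the 6 libraries had doxycycline without the CREB5 construct, so doxycycline and CREB5 cannot be told apart.

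Most S100 proteins are homodimers or heterodimers that open a hydrophobic face when calcium binds and then dock onto partner proteins inside the cell. Several are also released and act on cell surface receptors such as RAGE, the product of AGER. In cartilage, S100A1 and S100B are known as targets of the transcription factors SOX5, SOX6 and SOX9 and as inhibitors of terminal chondrocyte differentiation, and released S100A4 and S100A11 are known to stimulate chondrocytes through RAGE.

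The libraries held between 20063379 (Dox+ 3) and 122366790 (Dox+ 2) recovered reads, and each S100 gene had between 929 and 113021 reads in every library. CREB5 (ENSBTAG00000018909) stood at 510, 308 and 330 normalized counts in Dox- 1 to 3, against 20935, 12413 and 21964 in Dox+ 1 to 3. The labels of all 6 libraries fitted these levels. A normalized count is a read count divided by 1 size factor per library, and is not corrected for transcript length, so no gene was ranked by level against another. Ratios and sums over genes serve only to compare libraries. Fold changes are differences of group means of log2(normalized count + 1), tested with limma over 13180 genes at a threshold of 0.05 for the adjusted p. Of these genes, 2.52% were called higher and 0.357% lower in Dox+ cells.

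Among the 8 S100 genes, S100A2 was called lower and 0 were called higher, against the 0.357% of all tested genes called lower. S100A2 fell 3.58-fold. The other 7 did not pass the test, and their log2 fold changes lay between -1.03 (S100A1) and -0.13 (S100A11). The median log2 fold change of the 8 was -0.38, and that of all tested genes was -0.0036. At an unadjusted p under 0.05, 3 of the 8 genes passed limma, namely S100A2, S100A4 and S100A16, and all of them were lower, as were 3.57% of all tested genes at that threshold. Levels in Dox+ cells were below Dox- in all 3 pairs of libraries with the same number for 6 of the 8, where 19% of all tested genes were lower in all pairs. Groups did not overlap, with all Dox+ libraries below all Dox- libraries, for S100A2 and S100A16, where 6.29% of all tested genes showed this. The members were measured in the same 6 libraries, so these counts are not independent observations.

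**Figure D1:**
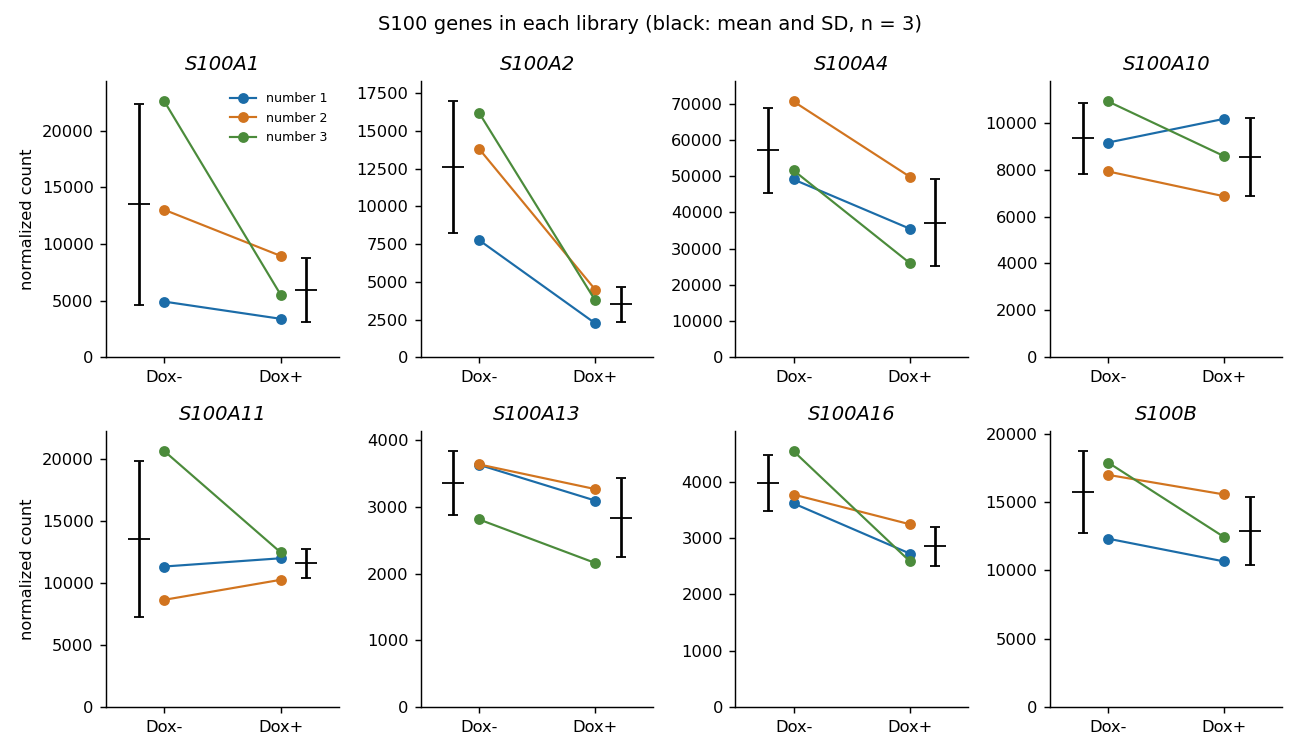
Normalized counts (vertical axes, from 0) of the 8 S100 genes in the Dox- and Dox+ libraries, with lines joining libraries of the same number and black marks for the mean and SD of 3 libraries. S100A2 falls in each pair to between 2249 and 4484, below the lowest Dox- library at 7768, while S100A10 and S100A11 cross.

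S100A2 (ENSBTAG00000037651) encodes a protein best known from epithelial cells, where it occurs in the nucleus. Its level was 7768, 13823 and 16212 normalized counts in Dox- 1 to 3, against 2249, 4484 and 3767 in Dox+ 1 to 3. Every Dox+ library lay below every Dox- library, and the lowest Dox- library was the one numbered 1, as was the lowest Dox+ library. The group means were 12601 ± 4353 and 3500 ± 1141 (SD, n = 3). By limma this was a log2 fold change of -1.84 (SE 0.33, adjusted p = 0.020), and the 95% interval of the fall ran from 2.12-fold to 6.04-fold. Within the same-numbered pairs, Dox+ held 29.0%, 32.4% and 23.2% of the Dox- level in pairs 1, 2 and 3.

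The limma call of S100A2 was lost without Dox- 2 (adjusted p = 0.082), Dox- 3 (0.081), Dox+ 1 (0.058) or Dox+ 3 (0.095), and kept without Dox- 1 (0.0038) or Dox+ 2 (0.021). Its log2 fold change stayed between -2.15 and -1.55 under the 21 alternatives run. In the authors' deposited table the value of S100A2 was -1.79 (log2) with an adjusted p of 1.2e-16.

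S100A2 was also set against the sum of the other S100 genes. For each 100 normalized counts of the other 7 genes there were 8.25, 11.1 and 12.4 of S100A2 in Dox- 1 to 3, against 2.90, 4.57 and 5.40 in Dox+ 1 to 3. Groups did not overlap, and an exact two-sided permutation test of the log2 ratio gave p = 0.1, the smallest that 3 against 3 libraries allow. S100A2 was singled out after its values were seen.

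**Figure D2:**
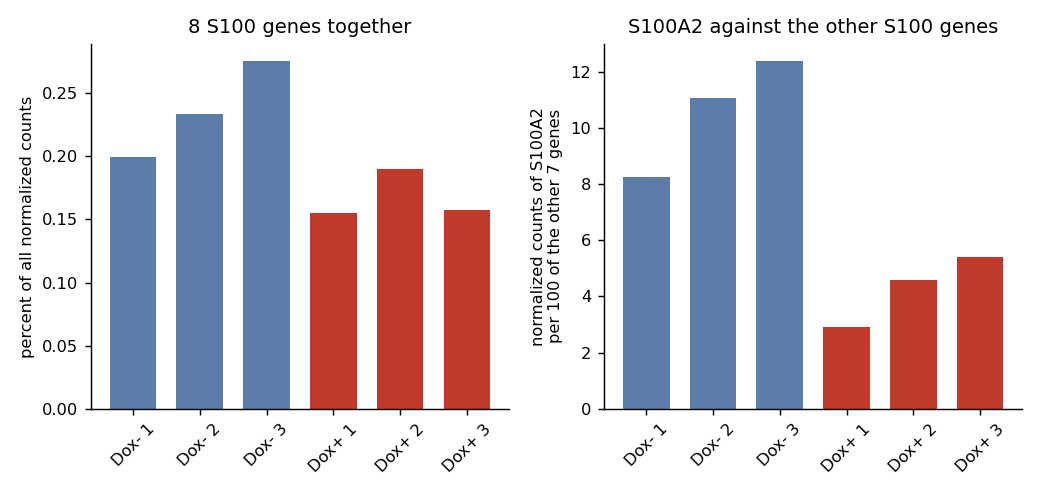
Left, the percent of all normalized counts that belonged to the 8 S100 genes in each library; right, normalized counts of S100A2 for each 100 of the other 7 S100 genes. Bars start at 0 and each stands for 1 library (blue Dox-, red Dox+); both panels show each Dox+ library below each Dox- library.

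S100A1 (ENSBTAG00000005163) and S100B (ENSBTAG00000004777) are the members tied to the chondrocyte program. S100A1 had 4905, 13005 and 22565 normalized counts in Dox- 1 to 3, against 3390, 8940 and 5523 in Dox+ 1 to 3. Its Dox- libraries spanned 4.60-fold, more than the fold change between the groups, and Dox- 1 lay below Dox+ 2 and Dox+ 3. The group means were 13492 ± 8840 and 5951 ± 2800 (SD, n = 3), and S100A1 did not pass (log2 fold change -1.03, SE 0.54, limma adjusted p = 0.60). Dox+ held 69.1%, 68.7% and 24.5% of the Dox- level in pairs 1, 2 and 3, the lowest share being in pair 3. Without Dox- 3 the log2 fold change was -0.54, and without Dox- 1 it was -1.64.

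A blocked adjusted p comes from the same limma model with the replicate number as a block. For S100A1 it was 0.061. S100A1 passed in DESeq2 with the block (adjusted p = 0.0092), and in the authors' deposited table, where its log2 fold change was -0.88 (adjusted p = 0.0064). Over the 21 alternatives its adjusted p ranged from 2.7e-05 to 0.999, the last without Dox+ 3.

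S100B had 12331, 17008 and 17910 normalized counts in Dox- 1 to 3, against 10659, 15570 and 12436 in Dox+ 1 to 3. The groups overlapped, and Dox+ was the lower library of each pair, at 86.4%, 91.5% and 69.4% of its Dox- level. Its log2 fold change was -0.29 (SE 0.22, limma adjusted p = 0.80), with a 95% interval from -0.79 to 0.21. A fall of S100B as large as that of S100A2 lay outside this interval. The ratio of S100A1 to S100B counts was 0.398, 0.765 and 1.26 in Dox- 1 to 3, against 0.318, 0.574 and 0.444 in Dox+ 1 to 3, with overlap between the groups (exact two-sided permutation test, p = 0.3, where 0.1 is the smallest possible).

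Of the 3 SOX factors that act on both genes in cartilage, 0 passed without the block. SOX9 had 5422, 7812 and 1885 normalized counts in Dox- 1 to 3, against 5722, 4986 and 2688 in Dox+ 1 to 3 (log2 fold change -0.02, and its sign turned with single libraries, to 0.41 without Dox- 2). SOX6 had a log2 fold change of -0.88 (limma adjusted p = 0.46, with the block 0.030), and SOX5 was 1.53-fold higher (limma adjusted p = 0.53). Dox- 3, the library with the highest S100A1 and S100B, had the lowest SOX5, SOX6 and SOX9 of the Dox- libraries. The Dox+ libraries did not repeat this. There, Dox+ 2 had the highest S100A1, S100B and SOX5, and Dox+ 3 had the lowest SOX5, SOX6 and SOX9. Dox+ 1, with the lowest S100A1 and S100B of the Dox+ libraries, had their highest SOX6 and SOX9. The relation of the SOX genes to S100A1 and S100B was not tested.

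Markers of chondrocytes also differed between the groups. Of 13 tested markers, 3 fell (COL9A1, ACAN and CHAD) and MATN3 rose, where limma called 0.357% of all tested genes lower and 2.52% higher. The median log2 fold change of the markers was -1.59. Summed, they lay between 158613 and 313452 normalized counts in Dox- and between 104717 and 123210 in Dox+ libraries. The blocked fit called 1 higher and 7 lower, where it called 4.86% of all tested genes higher and 1.65% lower. The part of this shift in the S100 values was not tested. In bulk RNA, fewer cells of a type and less RNA per cell cannot be told apart.

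S100A4 (ENSBTAG00000019203) encodes the fibroblast-associated protein also called metastasin, which binds non-muscle myosin IIA. Its level was 49124, 70671 and 51620 normalized counts in Dox- 1 to 3, against 35519, 49880 and 26022 in Dox+ 1 to 3. Dox+ 2 lay just above Dox- 1, and all other Dox+ libraries lay below the Dox- group. Within pairs the level came to 72.3%, 70.6% and 50.4% of Dox-. The means were 57138 ± 11786 and 37140 ± 12012 (SD, n = 3), a log2 fold change of -0.65 (SE 0.28, limma adjusted p = 0.44, blocked 0.10). S100A4 passed in DESeq2 with the block (adjusted p = 0.023), and in the authors' deposited table (log2 fold change -0.57, adjusted p = 0.028). MYH9, the heavy chain of its myosin partner, was 24676, 29939 and 28366 in the Dox- and 19380, 17417 and 20269 in the Dox+ libraries. All Dox+ values of MYH9 were below all Dox- values, and it did not pass (log2 fold change -0.54, limma adjusted p = 0.23).

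The authors' deposited table thus called 3 of the 8 S100 genes lower (S100A1, S100A2 and S100A4), where it called 2.05% of its 14664 genes with an adjusted p lower. DESeq2 with the block called the same 3 genes, against 2.32% of all tested genes. DESeq2 without the block (1.21% of all genes lower), edgeR without it (0.296%) and with it (1.44%), and limma with it (1.65%) called 1, S100A2.

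S100A10 (ENSBTAG00000015147) encodes p11, which no longer binds calcium, forms a complex with annexin A2 and serves as a plasminogen receptor at the cell surface. It had 9161, 7929 and 10914 normalized counts in Dox- 1 to 3, against 10176, 6865 and 8576 in Dox+ 1 to 3. The groups overlapped, with 1 pair higher and the others lower. The log2 fold change was -0.13 (SE 0.21, limma adjusted p = 0.91) with a 95% interval from -0.61 to 0.34. ANXA2, its annexin partner, had 34651, 49845 and 48222 in the Dox- and 26108, 41590 and 27250 in the Dox+ libraries (log2 fold change -0.50, limma adjusted p = 0.58). AHNAK, a giant scaffold protein that binds the same complex, was 1.17-fold higher in the fit (limma adjusted p = 0.85).

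S100A11 (ENSBTAG00000015145), the partner of annexin A1, had 11330, 8643 and 20636 normalized counts in Dox- 1 to 3, against 11995, 10256 and 12471 in Dox+ 1 to 3. Dox- 3 stood above all other libraries, and the Dox+ values lay between Dox- 1 and Dox- 3 or between Dox- 2 and Dox- 1. The log2 fold change was -0.13 (SE 0.30, limma adjusted p = 0.94), and it was 0.22 without Dox- 3. ANXA1 had 28298, 29253 and 31386 in the Dox- and 22279, 12658 and 17569 in the Dox+ libraries. All its Dox+ values were lower, and ANXA1 passed in limma with the block but not without it (log2 fold change -0.80, adjusted p = 0.15, blocked 0.049).

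S100A13 (ENSBTAG00000021378) takes part in the release of FGF1 and interleukin 1 alpha, which lack a signal peptide. Its level was 3634, 3640 and 2814 normalized counts in Dox- 1 to 3, against 3097, 3269 and 2160 in Dox+ 1 to 3. Each pair was slightly lower, at 85.2%, 89.8% and 76.8% of Dox-, and the groups overlapped. The log2 fold change was -0.26 (SE 0.22, limma adjusted p = 0.83) with a 95% interval from -0.75 to 0.23. FGF1 had 564, 142 and 214 in the Dox- and 411, 114 and 137 in the Dox+ libraries, with number 1 highest in both groups (limma adjusted p = 0.89). IL1A had 1 read over all 6 libraries.

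S100A16 (ENSBTAG00000014204), a widely expressed member, had 3615, 3773 and 4543 normalized counts in Dox- 1 to 3, against 2725, 3245 and 2588 in Dox+ 1 to 3. All Dox+ libraries lay below all Dox- libraries, and the libraries of each group were close together, spanning 1.26-fold and 1.25-fold. The log2 fold change was -0.48 (SE 0.18, unadjusted p = 0.027 and adjusted p = 0.34 in limma), with a 95% interval from -0.89 to -0.07 before adjustment. S100A16 passed under 0 of the 21 alternatives.

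**Figure D3:**
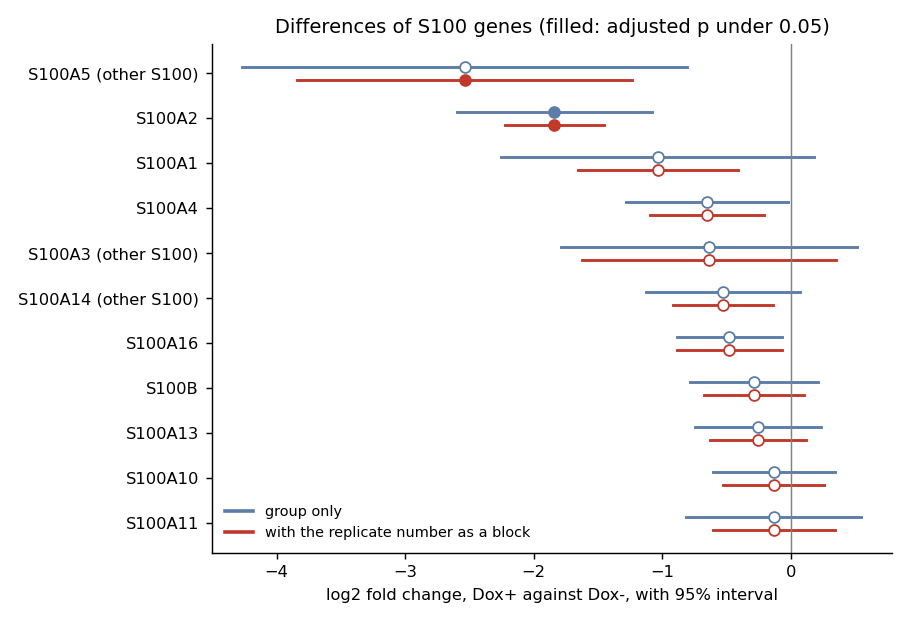
Log2 fold change between Dox+ and Dox- with its 95% interval (horizontal axis) for the 8 S100 genes and for 3 other S100 genes that could be tested, in limma without (blue) and with (red) the replicate number as a block. Filled points have an adjusted p under 0.05, which S100A2 has in both fits and S100A5 with the block.

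Pair 3 had the lowest log2 difference between Dox+ and Dox- for all 8 S100 genes. Its log2 differences ran from -2.11 (S100A2) to -0.35 (S100A10), while those of pair 2 ran from -1.62 (S100A2) to 0.25 (S100A11). The share of all tested genes with pair 3 lowest was not computed, so this is not shown to be particular to S100 genes. Pair 3 was also lowest for COL9A1, ACAN, CHAD and GFAP, while pair 2 was lowest for MYH9, ANXA1 and SOX6. Dox+ 3 had the fewest recovered reads, and the part of this in pair 3 was not tested. The replicates also differed in spread by gene. Within the Dox- group the SD on the log2 scale was 1.11 for S100A1 and 0.64 for S100A11, and 0.18 for S100A16. Together, the 8 genes took 0.200%, 0.234% and 0.275% of all normalized counts in Dox- 1 to 3, against 0.155%, 0.190% and 0.158% in Dox+ 1, 2 and 3. The share was lower in each pair, and the groups did not overlap (0.236 ± 0.0378% and 0.168 ± 0.0193%, SD, n = 3). S100A4 alone made up between 35.1% (Dox- 3) and 51.0% (Dox- 2) of the S100 counts of a library. It therefore weighs heavily in this share and in the sum that S100A2 was set against.

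Other S100 genes with a row numbered 9, and 3 of them passed the filter of a mean of 10 normalized counts. S100A14 had 4257, 7067 and 5243 in Dox- 1 to 3, against 3386, 5196 and 2988 in Dox+ 1 to 3 (log2 fold change -0.53, limma adjusted p = 0.58). S100A5 was a scarce transcript with 37.4, 71.0 and 55.0 in the Dox- and 8.46, 24.3 and 2.33 in the Dox+ libraries, and the groups did not overlap. Its log2 fold change was -2.54 (limma adjusted p = 0.18, blocked 0.028). S100A5 passed in DESeq2 with the block (adjusted p = 0.018) and in the authors' deposited table (adjusted p = 0.020). It did not pass in edgeR with the block (adjusted p = 0.055), or in DESeq2 (0.14) and edgeR (0.29) without it. The value in Dox+ 3 is 1 read, and the log2 fold change of S100A5 was -1.80 without Dox+ 3, -3.26 without Dox+ 2 and -2.02 with a pseudocount of 5. S100A3 had between 47.3 and 52.1 in the Dox- and between 16.3 and 50.8 in the Dox+ libraries (limma adjusted p = 0.81). The phagocyte genes S100A8, S100A9 and S100A12 had 3, 7 and 4 reads over the 3 Dox- libraries and 0 over the 3 Dox+ libraries, and S100A7, S100G and S100Z had 0 reads in all 6.

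In the RefSeq gene table of ARS-UCD2.0, which is another build than the files use and served only for gene order, 7 of the 8 S100 genes lie on 1 chromosome and S100B on another. From S100A1 to S100A10, the tested genes in order were S100A1, S100A13, S100A14, S100A16, S100A2, S100A3, S100A4, S100A5, a long noncoding RNA with no symbol, TCHH, S100A11 and S100A10. All 10 S100 genes of this run had a log2 fold change below 0, with a median of -0.58, where 50.5% of all tested genes were below 0. Of these 10, 7 are the S100 genes already described, and all were measured in the same 6 libraries, so they are not independent observations. Only S100A2 passed in limma, and the signs of S100A10 and S100A11 turned with single libraries. The 5 tested genes on each side of the run had log2 fold changes between -0.27 and 1.65 with a median of 0.03, and 5 of these 10 were below 0. None of the 10 flanking genes passed in limma, and with the block CGN, the last of them, which encodes the tight junction protein cingulin, was higher (adjusted p = 0.038). Between the S100 genes, TCHH was 2.24-fold higher in the fit (limma adjusted p = 0.61) and the noncoding RNA 1.99-fold lower (adjusted p = 0.18, blocked 0.045). TCHH was a scarce transcript, with 21.5, 5.92 and 15.9 normalized counts in Dox- 1 to 3, against 35.5, 22.9 and 32.6 in Dox+ 1 to 3. CGN was scarce too, with between 12.9 and 28.1 in the Dox- and between 55.8 and 72.8 in the Dox+ libraries. Neighbouring S100 genes lie close together, and nothing on strand in the counting is given in the sources used here, so reads at overlapping ends could be split between them.

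**Figure D4:**
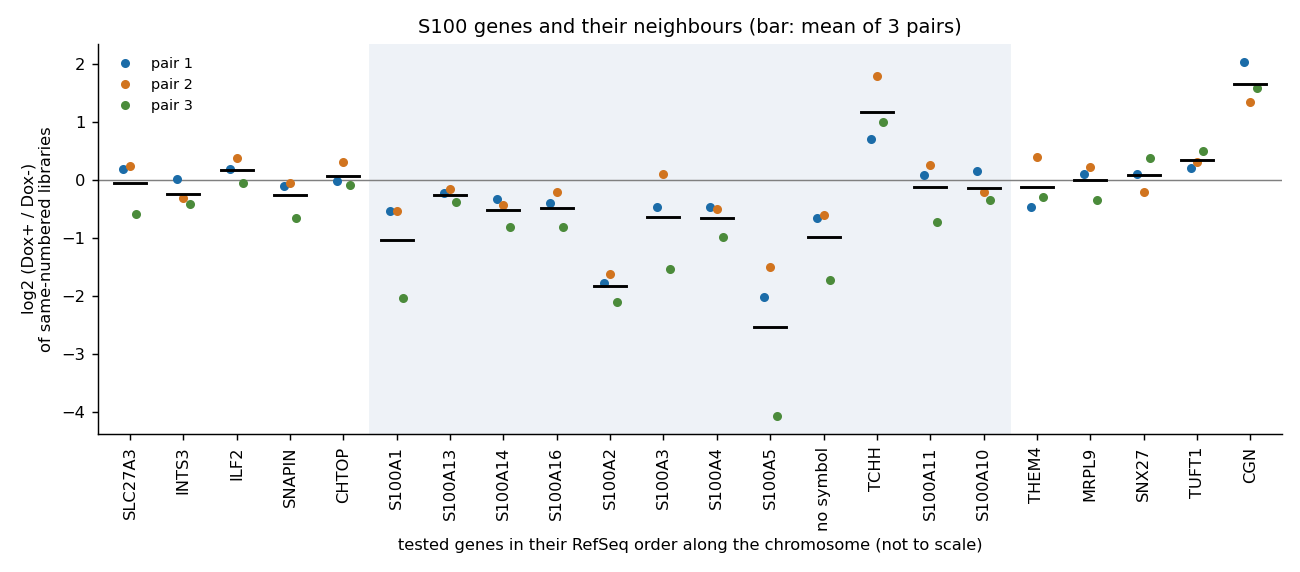
Log2 ratio of Dox+ to Dox- in each same-numbered pair (points) and its mean (bars) for the tested genes from S100A1 to S100A10 (shaded) and 5 tested genes on each side, in RefSeq order and not to scale. The S100 genes have their means below 0, the lowest at S100A5 and S100A2, and the flanking genes lie on both sides of 0.

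All 6 receptors listed for released S100 proteins passed the filter. Of these, MCAM rose, 0 fell, and 5 did not pass, where limma called 2.52% of all tested genes higher. MCAM, an adhesion molecule of the immunoglobulin superfamily that binds S100A8 and S100A9, had 7.97, 8.87 and 7.95 normalized counts in Dox- 1 to 3, against 293, 606 and 326 in Dox+ 1 to 3. It rose 41.9-fold (limma log2 fold change 5.39, SE 0.41, adjusted p = 0.00021). The call held under all 21 alternatives run. ALCAM, another adhesion molecule of that superfamily, had 1640, 1232 and 519 in the Dox- and 4369, 2110 and 3314 in the Dox+ libraries, without overlap, as for 8.88% of all tested genes with all Dox+ libraries higher (log2 fold change 1.62, limma adjusted p = 0.11, blocked 0.010). AGER, the RAGE gene, had 307, 512 and 280 in the Dox- and 333, 880 and 391 in the Dox+ libraries (limma adjusted p = 0.83). BSG, which encodes basigin, was 1.18-fold higher in the fit (limma adjusted p = 0.90). The median log2 fold change of the 6 receptors was 0.35.

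Among 22 tested partner proteins of S100 family members, GFAP fell, 0 rose, and 21 did not pass (median log2 fold change -0.21). Limma called 0.357% of all tested genes lower. GFAP, an intermediate filament protein whose assembly S100B regulates in astrocytes, had 860, 2312 and 1273 normalized counts in Dox- 1 to 3, against 47.4, 194 and 16.3 in Dox+ 1 to 3. No Dox+ library came near the Dox- group (log2 fold change -4.64, limma adjusted p = 0.014, and 0.060 without Dox- 2 or 0.058 without Dox- 3). Leaving out Dox+ 3 brought the log2 fold change to -3.81, and leaving out Dox+ 2 brought it to -5.56. PLAT, the gene of tissue plasminogen activator, a ligand of S100A10, had 619, 479 and 386 in the Dox- and 953, 1463 and 953 in the Dox+ libraries (log2 fold change 1.18, limma adjusted p = 0.060, blocked 0.013). ANXA2, AHNAK and FGF1 were named for their role and not for the size of their change.

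The 9 tested annexins, calcium-dependent membrane-binding proteins of which several pair with S100 dimers, gave 0 calls in limma and a median log2 fold change of -0.47. With the block ANXA3 passed as higher (16.6, 13.3 and 25.1 in the Dox- and 161, 50.8 and 72.1 in the Dox+ libraries, limma adjusted p = 0.089, blocked 0.017) and ANXA1 as lower. Of the 37 other tested genes with EF hands, such as the calmodulins, calpains and reticulocalbins, 0 passed in limma, and the median log2 fold change was 0.04. With the block 1 was lower, CIB2, a calcium and integrin binding protein (limma adjusted p = 0.10, blocked 0.022), and 1 was higher, NUCB2, which encodes nucleobindin 2 (limma adjusted p = 0.20, blocked 0.0084). With the block 4.86% of all tested genes were called higher and 1.65% lower.

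**Figure D5:**
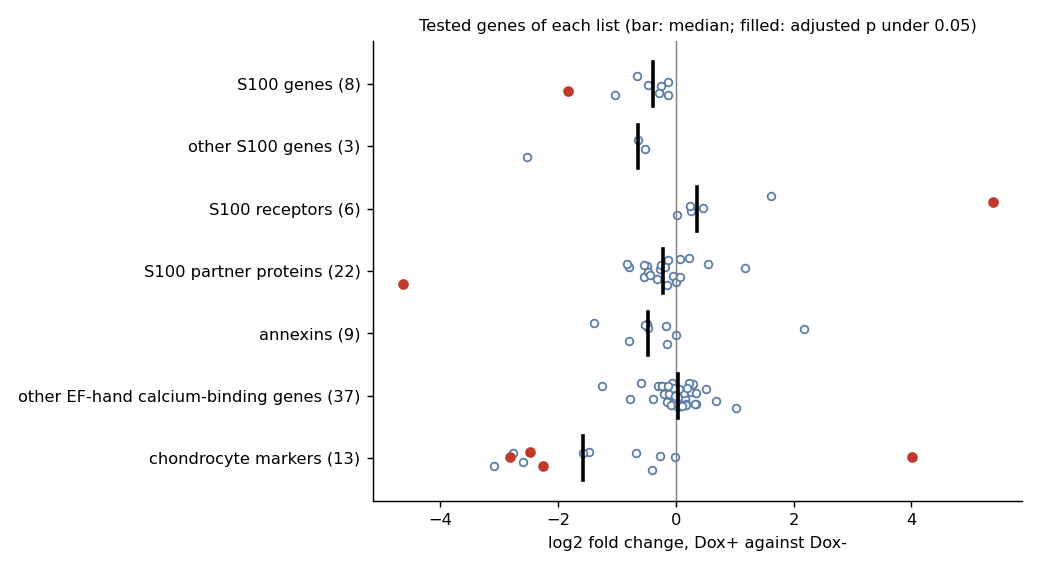
Log2 fold change between Dox+ and Dox- (horizontal axis) of each tested gene in 7 lists, with the number tested in brackets, bars at the medians and filled points for an adjusted p under 0.05 in limma. The S100 genes have all their points below 0 and a median of -0.38, other EF-hand genes centre on 0.04, and the chondrocyte markers on -1.59.

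The tested genes nearest to S100A2 in pattern, by the root mean square difference of their centred log2 values over the 6 libraries with 10943 genes of a mean level of 50 or more as candidates, were EPHB2, FAM180A and PRELP, with differences of 0.14, 0.19 and 0.23. EPHB2, an ephrin receptor, had 443, 735 and 1022 normalized counts in Dox- 1 to 3, against 117, 257 and 174 in Dox+ 1 to 3. PRELP, a leucine-rich repeat protein of the cartilage matrix, had 47110, 96313 and 158813 in the Dox- and 17439, 41190 and 31596 in the Dox+ libraries. For S100A1, examined after its values were seen, the nearest were CILP2, a cartilage intermediate layer protein, SAA3, an acute phase protein, and MAP9, a microtubule protein, with differences of 0.18, 0.25 and 0.27. CILP2 had 1843, 4119 and 7504 in the Dox- and 1301, 3778 and 2518 in the Dox+ libraries, in the same order of libraries within each group as S100A1. These genes were chosen for their likeness, and no test was made on it.

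Other cell types that express S100 genes were checked by their markers. Of 10 Schwann cell and melanocyte markers, which would accompany S100B from nerve, 0 passed the filter, MBP, CDH19, FOXD3, MLANA and TYRP1 had 0 reads in all libraries, and the summed level was between 6.12 and 9.81 normalized counts in the Dox- and between 0 and 20.7 in the Dox+ libraries. Of 7 keratinocyte markers, which would accompany S100A2, KRT5, KRT1, DSG3, TP63 and IVL had 0 reads in all libraries. The list summed to between 641 and 1337 in the Dox- and between 533 and 1395 in the Dox+ libraries, and KRT10 was the 1 tested member. Of 10 leukocyte and macrophage markers 3 were tested and 0 passed, ITGAM had 0 reads, and the sums were between 206 and 495 in the Dox- and between 384 and 741 in the Dox+ libraries. All 8 fibroblast markers were tested and 0 passed in limma, while with the block DPT and LUM were higher and THY1 was lower. The fibroblast sum was between 1989650 and 2014240 in the Dox- and between 1464570 and 1773700 in the Dox+ libraries. Adipocyte markers (3 of 5 tested, sums of 147 to 317 in the Dox- and 305 to 468 in the Dox+ libraries, LEP at 0 reads) and endothelial markers (5 of 8 tested, sums of 1782 to 2602 and 858 to 1497, CLDN5 at 0 reads) also gave 0 calls in limma. With the block ADIPOQ was higher (log2 fold change 1.77, limma adjusted p = 0.14, blocked 0.014), and ERG, which articular chondrocytes also express, was lower (log2 fold change -1.17, limma adjusted p = 0.065, blocked 0.0042). The part of the fibroblast, adipocyte and endothelial marker levels in the S100 values was not tested.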

How the data were processed

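Bovine mRNA libraries (6) were grouped and numbered by their titles. The authors deposited normalized counts, a signal per gene and library. Per the submitters' processing notes, the builds named were ARS-UCD1.2 and bosTau9, and tools listed with no role were STAR 2.5.2b, Salmon, DESeq2, MultiQC 1.2 and FastQC 0.11.3. The authors' deposited comparison table gives a log2 fold change, its standard error and p-values; for its design, nothing is given in the sources used here. In each library 100% of the values above 0 were whole multiples of 1 step within 0.01 read, so reads were recovered.

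The unit being a normalized count, limma 3.58.1 (R 4.3.3, lmFit, eBayes with trend, two-sided, Benjamini-Hochberg) was run on log2(normalized count + 1) for genes with a mean of at least 10. On simulated data (13180 genes) it called 40% of genes with a log2 change of -1 and 100% of those with -2. The simulation gave all genes the same dispersion, changed only genes with a mean of at least 50, and held no pairing of libraries. Real genes differ in spread, so these shares do not tell which fall a given gene without a call could have had. edgeR 4.0.16 and DESeq2 1.42.0 on recovered reads were alternatives. Deviations of same-numbered libraries from their group means correlated at 0.646, 0.443 and 0.212 for numbers 1, 2 and 3 over 13180 genes. For libraries with different numbers the correlations ran from -0.59 to 0.183. The numbers were therefore taken to pair the libraries, though Dox- 3 with Dox+ 2 (0.183) came close to pair 3 (0.212). Deviations from a group mean cancel within the group, so high correlations at the same number push those at different numbers down. The correlations are thus not independent of each other. The labels name 3 knees without tying numbers to them. Libraries of a group differed by more than sampling noise (chi-square per degree of freedom 57.9 to 435). Intervals are 95% and unadjusted.

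The members and lists were chosen with earlier results of these data known. Named were the 8 S100 genes, CREB5, up to 4 genes of each list with the smallest p, and the 3 genes nearest in pattern to the member with the largest fall; no member had a positive log2 fold change. Symbols came from the authors' table. Some listed genes are not reported here.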

Additional observations from a re-analysis of the deposited data

How the results depend on the processing

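S100A2 kept a negative log2 fold change in all 21 alternatives and was called in 16. The number of S100 genes called lower, 1 in the report, was 0 in eBayes without trend and 3 in DESeq2 with the replicate block. With 1 library left out it ranged from 0 to 1, and with the replicate block and both libraries of a number left out it was 2, S100A1 and S100A2, each time. Per gene, 1 residual degree of freedom remains in such fits. S100 genes called higher numbered 0 in every fit, and the median log2 fold change of the S100 genes lay between -0.50 and -0.25. The share of S100 counts stayed lower in Dox+ cells, with a difference of -0.0869 to -0.0491 percentage points (8 settings). With 1 library left out, log2 fold changes of both signs were found for S100A10 (-0.27 to 0.013), S100A11 (-0.41 to 0.22 without Dox- 3, and 0.16 with the replicate block without both libraries numbered 3), SOX9 (-0.62 to 0.41, 0.15 without Dox- 1, 0.31 without Dox+ 3, and 0.29 with the replicate block without both numbered 2), BSG (-0.087 without Dox- 1, to 0.49) and FGF1 (-1.04 to 0.093, the latter without Dox- 1). The count of all tested genes called, 379 in the report, was 858 with the replicate block, 701 in DESeq2, 781 in edgeR with the block, 1049 in DESeq2 with the block, 147 to 436 with 1 library left out and 762, 1235 and 1449 with the block and a pair left out. The count of genes of the fixed lists called, 6 in the report, was 3 in eBayes without trend, 23 with the replicate block, 21 in DESeq2, 21 and 26 in edgeR and DESeq2 with the block, 3 to 14 with 1 library left out and 21 to 33 with the block and a pair left out. The cause of these shifts was not tested. Of the called genes named beside the S100 genes, EPHB2 and ACAN lost the call without Dox- 2, Dox- 3, Dox+ 1 or Dox+ 3, CHAD without Dox- 2, Dox+ 1 or Dox+ 3, GFAP without Dox- 2 or Dox- 3 and MATN3 without Dox+ 3.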
